A study of Mus musculus with 12 samples.

Results

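The 37 genes described here are transcripts that fat cells make in quantity, selected by name. They fall into 33 genes of white adipocytes, many of them shared with brown fat, and 4 genes that mark brown fat (Ucp1, Cidea, Elovl3 and Dio2). All 37 were found among the 43346 genes of the deposited table. They were read in bulk RNA-seq libraries of mouse veins, 6 from sham-operated animals and 6 from animals labelled AVF-CKD. The sham tissue is labelled jugular vein and the AVF-CKD tissue the venous limb of the AVF, and all 12 samples were taken 7 days after surgery. In this field the letters usually stand for arteriovenous fistula and chronic kidney disease, but the labels do not spell them out. Strain, age, genotype and sex are not given in the labels, nor is it stated that each sample came from a separate mouse. The p-values below therefore measure the spread between these samples, which may be partly technical. The labelled tissue and the surgery differ together between the groups, as may kidney disease and the site of the vessel, and these cannot be told apart.

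White adipocytes store triglyceride in a single large droplet coated by perilipins and release it as fatty acids through lipases that are switched on by adrenergic receptors. They make part of that fat from glucose by de novo lipogenesis, take up the rest from circulating lipoproteins, and secrete hormones such as adiponectin, leptin and, in rodents, resistin. Brown adipocytes hold many small droplets and burn fatty acids for heat through the uncoupling protein of their mitochondria, encoded by Ucp1. Larger vessels are wrapped in perivascular fat, which can be white, brown or mixed depending on the site.

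The libraries held 38653830 to 60142016 counted reads, the most in sham 1 and the fewest in AVF-CKD 2. At these depths a count of 0 allows a level of up to 0.0502 to 0.0775 CPM, depending on the library, taken as 3 counts and covering counting error only. Levels are given as CPM, counts scaled to a common library size with TMM factors. Endothelial, smooth muscle and fibroblast markers were present in every library: Pecam1 ranged from 297 to 518 CPM and Acta2 from 473 to 1144 CPM. Adipoq was at 61.4 CPM or more in every library, so all 12 held adipocyte transcripts. Library sham 6 had the highest level of 35 of the 37 genes, the exceptions being Ppargc1a (sham 4) and Mest (sham 5). Within the fistula group, library AVF-CKD 4 was highest for 31 of the 37 genes. The share of all genes that were highest in these libraries is not given here. The fitted differences of the 36 tested genes are therefore given with and without sham 6, and for some genes without AVF-CKD 4 as well. In bulk libraries, fewer adipocytes and less RNA per adipocyte cannot be told apart.

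Fat transcripts were lower in the fistula libraries, but no single gene passed the test across all genes. Of the 37 genes, 36 had enough counts to be tested, Elovl3 being the exception, and all 36 had lower fitted levels in AVF-CKD than in sham. The median log2 difference was -0.83 over the 33 white and shared genes and -1.70 over the 3 brown fat genes tested, beside -0.00248 over all 18965 genes tested. With edgeR's quasi-likelihood test and Benjamini-Hochberg adjustment over all tested genes, 0 of the 36 had an adjusted p below 0.05, as had 0% of all genes. At an unadjusted p below 0.05, 16 of the 36 were lower, against 4.08% of all genes, and 0 were higher, against 5.26% of all genes. The same shares of all genes stand beside each such count from all 12 libraries given below by role, marker set or list. DESeq2 called 2 of the genes lower, Adipoq and Retn (adjusted p = 0.0392 and 0.0232), among 0.56% of all genes that it called, and limma's voom called 0. The groups overlapped for every one of the 37 genes, while 0.221% of all tested genes had AVF-CKD values wholly below sham.

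Leaving out sham 6 made the median difference of the white and shared genes smaller and turned that of the brown fat genes. Without it the median over the white and shared genes was -0.38, 26 of the 36 genes were lower and 10 higher, and the median of the 3 brown fat genes was 0.61, on the other side of zero. At an unadjusted p below 0.05, 5 genes were then lower (3.08% of all genes) and 2 higher (4.15% of all genes). The 5 were Adipoq, Retn, Thrsp, Car3 and Agpat2, and the 2 were Pck1 and Ucp1. The groups still overlapped for every one of the 37 genes, against 0.304% of all genes wholly lower in AVF-CKD. With both sham 6 and AVF-CKD 4 left out, 15 genes were lower at an unadjusted p below 0.05 (2.44% of all genes) and 0 higher (2.71% of all genes), and the medians were -0.53 and -0.22. Without AVF-CKD 4 alone, 22 genes were lower at that level (3.13% of all genes), with medians of -0.97 and -3.16. Without AVF-CKD 1, AVF-CKD 3 or AVF-CKD 6 the number of lower genes was 9 (3.39% of all genes), 9 (4.63%) and 10 (3.55%).

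**Figure D1:**
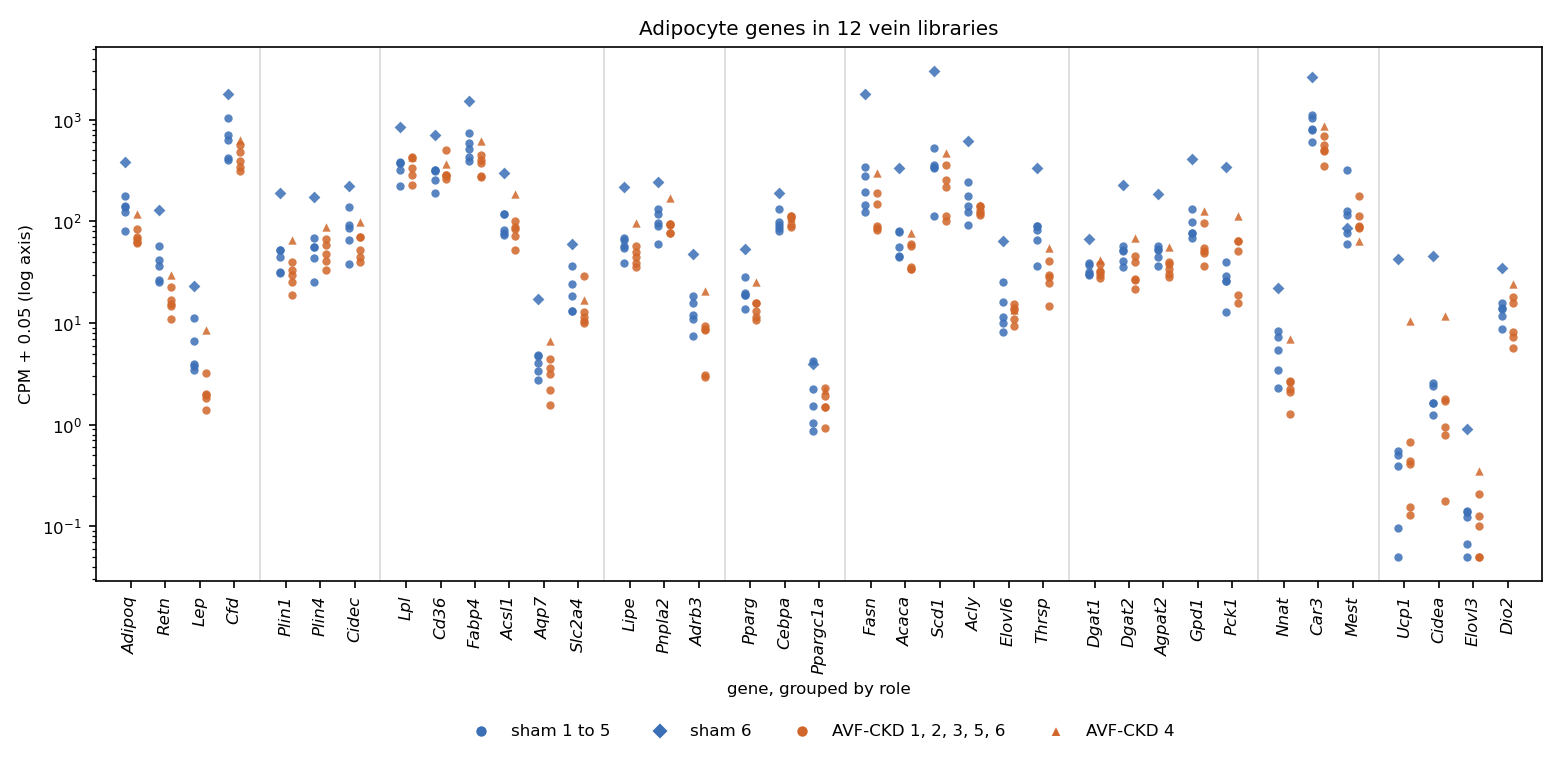
Level of each of the 37 genes in every library, as CPM plus 0.05 on a log axis, grouped by role with grey lines between roles; sham libraries are blue, AVF-CKD libraries orange. Sham 6 (diamonds) stands at the top of 35 genes and AVF-CKD 4 (triangles) at the top of its group for 31, and the groups overlap for each gene.

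**Figure D2:**
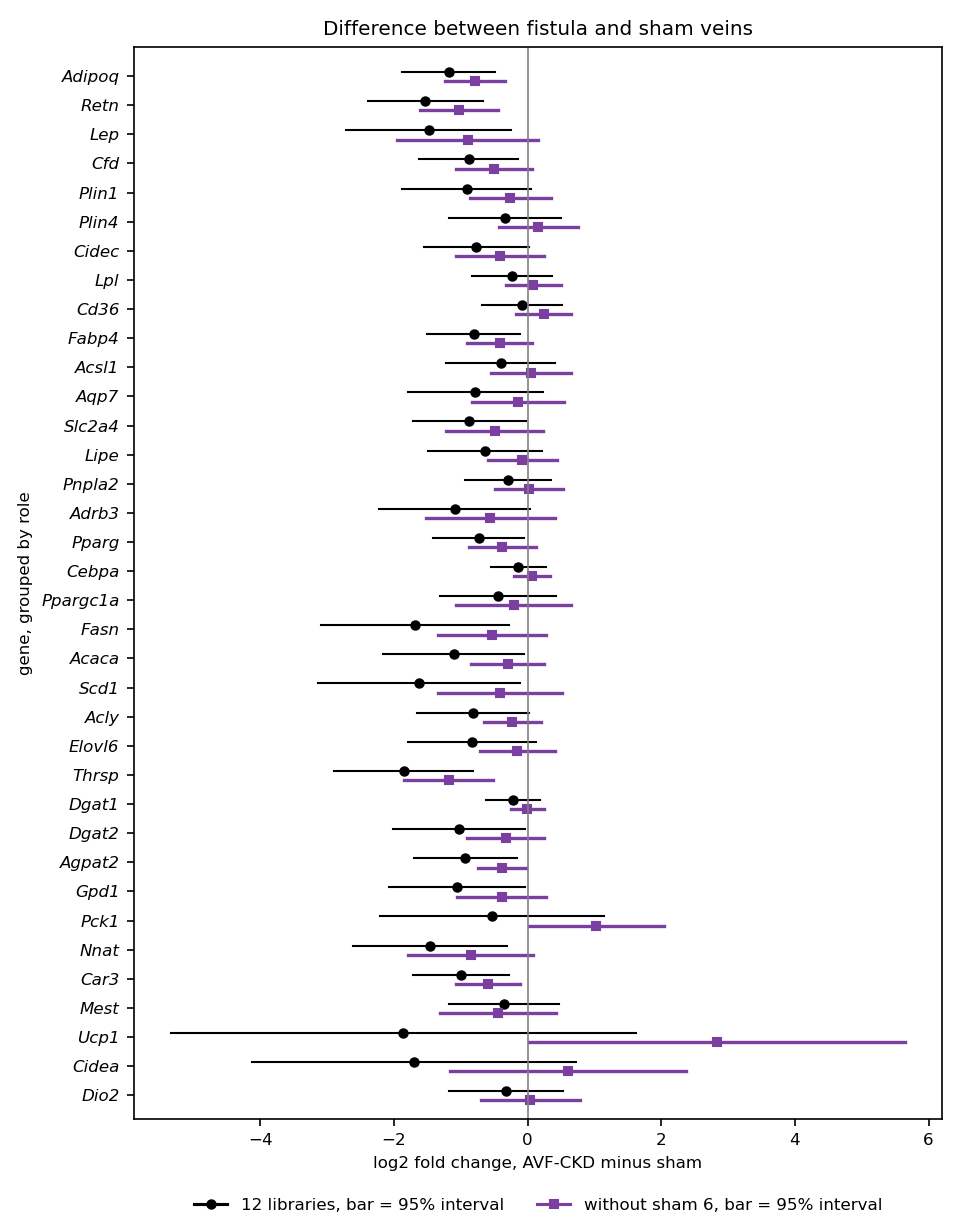
Fitted log2 fold change, AVF-CKD minus sham, of the 36 tested genes with 95% intervals, from all 12 libraries (black) and without sham 6 (purple). All 36 black points lie left of zero, while 10 purple points lie right of it, Ucp1 and Pck1 farthest.

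The 3 genes with the smallest p were Retn, Thrsp and Adipoq, and the bases upstream of their starts are shown because these genes were lower in AVF-CKD with and without sham 6. The sequences are the 250 bases before the RefSeq start on GRCm38.p6, read along the gene's strand. They lie at chr16:23146286-23146535 (+ strand) for Adipoq, chr7:97417551-97417800 (- strand) for Thrsp and chr8:3655520-3655769 (+ strand) for Retn. Capitals mark matches on either strand to CCAAT, the core of the box bound by NF-Y, and to the letters TTGCNNNAA, where N is any base.
Adipoq: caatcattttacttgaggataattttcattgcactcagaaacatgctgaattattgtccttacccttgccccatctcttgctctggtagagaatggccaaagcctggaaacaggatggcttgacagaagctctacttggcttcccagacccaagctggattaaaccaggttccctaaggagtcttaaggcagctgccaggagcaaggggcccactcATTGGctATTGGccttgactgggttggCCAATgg
Thrsp: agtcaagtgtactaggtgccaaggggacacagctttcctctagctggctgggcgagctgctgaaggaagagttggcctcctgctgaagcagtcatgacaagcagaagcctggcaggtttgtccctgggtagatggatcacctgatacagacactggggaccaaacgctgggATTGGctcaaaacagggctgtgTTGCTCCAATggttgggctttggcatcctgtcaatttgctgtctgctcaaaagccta
Retn: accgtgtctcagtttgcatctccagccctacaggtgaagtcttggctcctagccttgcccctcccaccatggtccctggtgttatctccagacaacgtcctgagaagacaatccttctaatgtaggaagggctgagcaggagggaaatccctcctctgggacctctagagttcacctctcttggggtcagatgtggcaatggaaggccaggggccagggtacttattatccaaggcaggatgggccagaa

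The Adipoq window held 3 CCAAT matches, beginning 34, 27 and 7 bases before the start. The Thrsp window held a pair of CCAAT matches, beginning 79 and 52 bases before the start, and a TTGCNNNAA match beginning 57 bases before it that overlaps the nearer CCAAT. The Thrsp model of the deposited table, however, runs to base 97417730 of chromosome 7. Much of this window, with all of its matches, thus lies inside that model rather than before it. The Retn window held neither. Across the 32851 windows of this length in the table, 33.8% held CCAAT and 8.29% TTGCNNNAA. Windows were found for 26 of the 37 genes (34 windows), of which 8 held CCAAT and 4 TTGCNNNAA. TATAAA was found in 3 of the 34 windows (12.4% of all windows), CACGTG in 1 (6.02%) and AGGNCANAGGNCA, the direct repeat that PPARγ binds with RXR, in 0 (0.338%). A match is a description of these letters only.

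Transcripts of all 4 secreted proteins had lower levels in the fistula libraries at an unadjusted p below 0.05, with a median log2 difference of -1.33, and of -0.84 without sham 6. Adipoq encodes adiponectin, the most adipocyte-restricted of the fat hormones. It was at 81.0 to 386 CPM in sham (median 140) and at 61.4 to 118 CPM in AVF-CKD (median 68.2). Sham 5 was the single sham library within the fistula range, and AVF-CKD 4 was the highest fistula library. The log2 difference was -1.18 ± 0.32 (SE; edgeR adjusted p = 0.390), and without sham 6 it was -0.78 ± 0.21 (adjusted p = 0.620). Over the alternative settings its adjusted p ran from 0.0392 to 0.698.

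Retn encodes resistin. Its levels were 25.5 to 131 CPM in sham (median 38.9) and 10.8 to 29.7 CPM in AVF-CKD (median 15.96). Only AVF-CKD 4 reached into the sham range, since the next highest fistula library had 22.7 CPM. On the log2 scale it differed by -1.53 ± 0.40 (SE; edgeR adjusted p = 0.390), and -1.03 ± 0.27 without sham 6 (adjusted p = 0.620). Over the alternative settings the adjusted p ran from 0.0232 to 0.698.

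Lep encodes leptin, which signals the size of the fat store to the brain. It was scarce, at 3.38 to 23.1 CPM in sham (median 5.31) and 1.36 to 8.42 CPM in AVF-CKD (median 1.94). Its highest values came from sham 6 and AVF-CKD 4, and the other fistula libraries had at most 3.15 CPM. The log2 difference was -1.48 ± 0.57 (SE). It was -0.90 ± 0.48 without sham 6 and -1.50 (edgeR adjusted p = 0.847) without both of those libraries. Cfd encodes adipsin, the complement factor D of fat. It was the most abundant of the 37 per kilobase of transcript, with a mean of 697 CPM per kilobase. It ranged from 398 to 1802 CPM in sham (median 668) and from 315 to 629 CPM in AVF-CKD (median 437), a log2 difference of -0.88 ± 0.34 (SE; edgeR adjusted p = 0.489), and of -0.50 ± 0.26 without sham 6.

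Among the genes of lipid droplet proteins none of the 3 had an unadjusted p below 0.05. Cidec, which lets droplets fuse and grow, was the most abundant of them per kilobase. It was at 38.0 to 222 CPM in sham (median 88.8) and 39.6 to 99.2 CPM in AVF-CKD (median 61.6), a log2 difference of -0.77 ± 0.36 (SE; edgeR adjusted p = 0.541), and of -0.41 ± 0.30 without sham 6. Plin1, the perilipin that guards the droplet from lipases, differed by -0.91 ± 0.45 (SE), and by -0.26 ± 0.28 without sham 6. Plin4, another droplet coat protein, differed by -0.34 ± 0.39 (SE), and by 0.16 ± 0.27 without sham 6.

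All 6 genes of uptake and binding had lower fitted levels with all libraries, 2 of them at an unadjusted p below 0.05. Fabp4, the cytosolic fatty acid carrier of adipocytes, was at 389 to 1514 CPM in sham (median 556) and 276 to 616 CPM in AVF-CKD (median 389), a log2 difference of -0.80 ± 0.32 (SE; edgeR adjusted p = 0.496), and of -0.42 ± 0.22 without sham 6. Slc2a4, the insulin-responsive glucose transporter also made by muscle, differed by -0.87 ± 0.39 (SE; edgeR adjusted p = 0.526), and by -0.49 ± 0.33 without sham 6. The other 4 had unadjusted p-values above 0.05. Lpl, the lipase that frees fatty acids from lipoproteins, had a sham median of 377 CPM and a fistula median of 378 CPM, and Cd36, a fatty acid translocase, medians of 317 and 285 CPM. Their log2 differences were -0.24 ± 0.28 and -0.09 ± 0.28 (SE), with 95% intervals of -0.84 to 0.36 and -0.68 to 0.51, and without sham 6 they were 0.09 ± 0.19 and 0.24 ± 0.19. Both are also made by other cells of the vessel wall, such as macrophages, and Cd36 by endothelium. Acsl1, which activates fatty acids with coenzyme A, and Aqp7, the glycerol channel, differed by -0.40 ± 0.38 and -0.78 ± 0.47 (SE), and by 0.05 ± 0.27 and -0.14 ± 0.32 without sham 6. Without that library the median of the 6 genes moved from -0.59 to -0.04.

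None of the lipolysis genes had an unadjusted p below 0.05. Pnpla2, the lipase that removes the first fatty acid of a triglyceride, was at 60.07 to 241 CPM in sham (median 107) and 76.4 to 170 CPM in AVF-CKD (median 92.4). Its log2 difference was -0.29 ± 0.30 (SE; edgeR adjusted p = 0.805), and 0.02 ± 0.23 without sham 6. Lipe, the hormone-sensitive lipase, differed by -0.64 ± 0.39 (SE) and Adrb3, the adrenergic receptor that stimulates lipolysis in rodent fat, by -1.09 ± 0.52 (SE; edgeR adjusted p = 0.544). Their differences without sham 6 were -0.08 ± 0.24 and -0.56 ± 0.44. Reads of Adrb3 and Lipe could not be fully separated from those of neighbours, since other gene models overlap 24.9% and 15.6% of their exonic bases and the kit does not mark strand.

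Of the regulators, Pparg, the master factor of adipocyte differentiation, ran from 13.7 to 53.5 CPM in the sham libraries (median 19.4) and from 10.6 to 25.2 CPM in the fistula libraries (median 14.5). Its log2 difference was -0.73 ± 0.31 (SE; edgeR adjusted p = 0.503), and -0.38 ± 0.23 without sham 6. Cebpa, its partner factor, which macrophages also make, ran from 81.0 to 189 CPM in sham (median 96.2) and from 87.0 to 114 CPM in AVF-CKD (median 107). Its difference was -0.14 ± 0.19 (SE; edgeR adjusted p = 0.856) and 0.07 ± 0.12 without sham 6. Ppargc1a, the coactivator of mitochondrial genes, stayed at or under 4.17 CPM and differed by -0.44 ± 0.40 (SE), and by -0.21 ± 0.40 without sham 6.

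The 6 genes of fatty acid synthesis carried some of the largest fitted differences, and these rested in good part on sham 6. All 6 were lower in AVF-CKD with and without sham 6, 4 of them at an unadjusted p below 0.05 with all libraries, but their median moved from -1.37 to -0.35 without sham 6. Scd1, the desaturase that makes oleate, was the most abundant of them per kilobase. It was at 112 to 2995 CPM in sham (median 352) and 101 to 468 CPM in AVF-CKD (median 235). The highest value was that of sham 6, and the other sham libraries had at most 529 CPM, so that their range and the fistula range largely coincided. The fitted difference was -1.62 ± 0.70 (SE; edgeR adjusted p = 0.503) and -0.41 ± 0.43 without sham 6.

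Thrsp, also named Spot 14, a nuclear protein that goes with lipogenesis, had the most negative fitted difference of the white genes. Its levels were 36.4 to 333 CPM in sham (median 86.0) and 14.6 to 55.1 CPM in AVF-CKD (median 29.0). Sham 1 was the single sham library within the fistula range, where AVF-CKD 2 and AVF-CKD 4 lay above it. The log2 difference was -1.85 ± 0.48 (SE; edgeR adjusted p = 0.390), and -1.18 ± 0.31 without sham 6 (adjusted p = 0.620). Over the alternative settings its adjusted p ran from 0.0509 to 0.698.

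Fasn, the fatty acid synthase, ran from 124 to 1790 CPM in sham (median 235) and from 81.4 to 296 CPM in AVF-CKD (median 119). The value of 1790 CPM was that of sham 6, and the other sham libraries had at most 341 CPM. Its log2 difference was -1.68 ± 0.65 (SE; edgeR adjusted p = 0.488), and -0.54 ± 0.37 without sham 6. Acaca, the carboxylase that makes malonyl-CoA, differed by -1.11 ± 0.49 (SE; edgeR adjusted p = 0.513), and by -0.29 ± 0.25 without sham 6. Acly, which supplies cytosolic acetyl-CoA, and Elovl6, which lengthens palmitate, differed by -0.82 ± 0.39 and -0.83 ± 0.44 (SE), each with an unadjusted p above 0.05, and by -0.23 ± 0.20 and -0.15 ± 0.26 without sham 6.

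In triglyceride synthesis, 3 of 5 genes were lower at an unadjusted p below 0.05. Gpd1, which makes glycerol 3-phosphate, was at 68.0 to 413 CPM in sham (median 87.3) and 36.6 to 128 CPM in AVF-CKD (median 52.8), a log2 difference of -1.06 ± 0.47 (SE; edgeR adjusted p = 0.513), and of -0.39 ± 0.30 without sham 6. Other gene models overlap 13.0% of its exonic bases. Agpat2, an acyltransferase on the way to phosphatidic acid whose loss causes lipodystrophy, differed by -0.93 ± 0.36 (SE; edgeR adjusted p = 0.487) and, without sham 6, by -0.38 ± 0.17. Of the enzymes of the last step, Dgat2 differed by -1.02 ± 0.46 and Dgat1 by -0.22 ± 0.19 (SE), and without sham 6 by -0.33 ± 0.26 and -0.000961 ± 0.11. The difference between these genes was not tested.

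Pck1, the enzyme of glyceroneogenesis in fat, showed the widest spread of this group. It was at 12.7 to 340 CPM in sham (median 27.4) and 15.8 to 113 CPM in AVF-CKD (median 57.5). All sham libraries but sham 6 had at most 39.7 CPM, while 4 of the fistula libraries (AVF-CKD 2, 4, 5 and 6) had at least 51.1 CPM. The fitted difference was -0.53 ± 0.78 (SE; edgeR adjusted p = 0.867) with sham 6 and 1.03 ± 0.46 without it (adjusted p = 0.685). Without AVF-CKD 4 as well it was 0.68 (adjusted p = 0.953).

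Of the remaining adipocyte-rich transcripts, Car3, a carbonic anhydrase that makes up much of the soluble protein of rodent fat and is also found in slow muscle, had a mean of 304 CPM per kilobase. It was at 598 to 2608 CPM in sham (median 931) and 353 to 873 CPM in AVF-CKD (median 534), a log2 difference of -1.001 ± 0.33 (SE; edgeR adjusted p = 0.424). Without sham 6 the difference was -0.59 ± 0.22 (adjusted p = 0.627). Nnat, the imprinted neuronatin, was at 2.26 to 21.8 CPM in sham (median 6.25) and 1.22 to 6.88 CPM in AVF-CKD (median 2.38), where AVF-CKD 4 was the highest and the other 5 had at most 2.62 CPM. Its log2 difference was -1.46 ± 0.54 (SE; edgeR adjusted p = 0.479), and -0.85 ± 0.43 without sham 6. Mest, an imprinted gene tied to the expansion of fat, was the exception to the order of the libraries: its highest value, 322 CPM, was in sham 5, and sham 6 had 86.1 CPM. It differed by -0.35 ± 0.38 (SE), and by -0.44 ± 0.40 without sham 6. Copg2 overlaps 23.1% of its exonic bases.

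Ucp1 and Cidea were far higher in 2 libraries, 1 of each group, than in the other 10. Elovl3 was highest in the same 2 at low counts. Dio2 was highest in these 2 as well, but by a smaller margin. Its values there were 34.7 CPM (sham 6) and 24.2 CPM (AVF-CKD 4), and no other library exceeded 17.8 CPM. Ucp1 (chromosome 8, 83290348 to 83298456 on GRCm38) was at 42.5 CPM in sham 6, from 2047 reads, and at 10.5 CPM in AVF-CKD 4, from 491 reads. The other 5 sham libraries had 0 (sham 5), 0.0463, 0.345, 0.452 and 0.503 CPM, and the other 5 fistula libraries 0.0786, 0.106, 0.363, 0.388 and 0.621 CPM, with at most 32 reads in any of these 10. The group difference on the log2 scale was -1.86 ± 1.61 (SE; edgeR adjusted p = 0.756) with all libraries. It was 2.84 ± 1.29 (adjusted p = 0.689) without sham 6 and 0.16 (adjusted p = 0.993) without both. The sign of the Ucp1 difference thus turned with the library left out.

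Cidea, a droplet protein abundant in brown fat, had the same 2 libraries on top, sham 6 with 45.6 CPM and AVF-CKD 4 with 11.7 CPM. The other sham libraries had 1.18 to 2.52 CPM and the other fistula libraries 0.127 to 1.73 CPM. The log2 difference was -1.70 ± 1.12 (SE; edgeR adjusted p = 0.675), and 0.61 ± 0.81 without sham 6. Elovl3, which makes very long fatty acids in brown fat, did not pass the filter on low counts. It reached 0.851 CPM in sham 6 (41 reads) and 0.299 CPM in AVF-CKD 4 (14 reads), and at most 0.159 CPM elsewhere, so no difference between the groups was detectable at this depth. Dio2, the deiodinase that activates thyroid hormone in brown fat and in other tissues, was measured in every library at 5.67 to 34.7 CPM. Its sham median was 13.7 CPM and its fistula median 11.9 CPM, and its log2 difference was -0.32 ± 0.39 (SE; edgeR adjusted p = 0.838), and 0.04 ± 0.34 without sham 6.

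Set against Adipoq of the same library, Ucp1 was at 11% of the Adipoq CPM in sham 6 and 8.87% in AVF-CKD 4, and at 0.927% or less in the other 10. Cidea was at 11.8% and 9.92% in the 2 libraries and at 0.202% to 3.11% in the others. Dio2 was not set apart in this way, at 8.97% of Adipoq in sham 6 and 6.57% to 25.6% over all 12. Elovl3, at low counts, was at 0.220% in sham 6, 0.253% in AVF-CKD 4 and 0.228% in AVF-CKD 5, and at most 0.116% in the others. Relative to adiponectin RNA, sham 6 and AVF-CKD 4 thus held more Ucp1 and Cidea RNA than the other 10. These ratios are between CPM of transcripts of different length and are compared only between libraries.

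**Figure D3:**
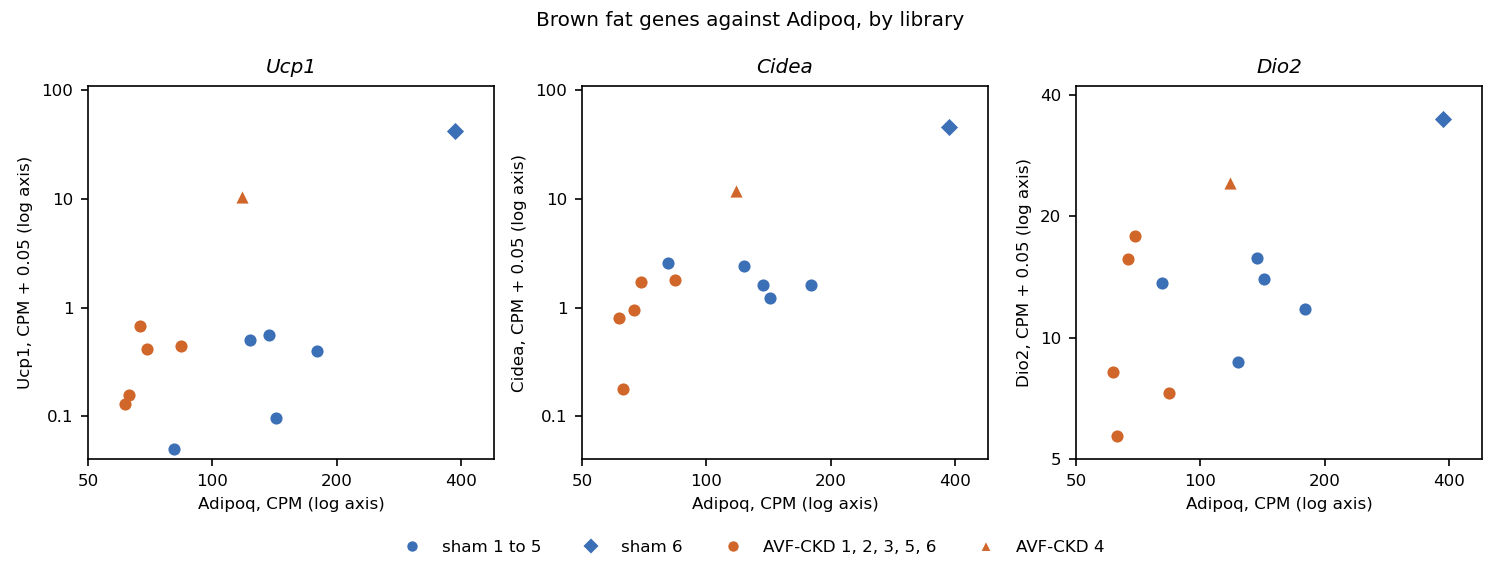
Ucp1, Cidea and Dio2 (CPM plus 0.05) against Adipoq (CPM) in each library, all on log axes, with sham blue and AVF-CKD orange. For Ucp1 and Cidea, sham 6 (diamond) and AVF-CKD 4 (triangle) lie far above the other 10 libraries, whereas for Dio2 they are the highest by a smaller margin.

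Sham 6 differed from the other sham libraries by a different factor for each gene. Its level over the median of sham 1 to 5 was 123 for Ucp1, 28.9 for Cidea, 13.1 for Pck1, 11.8 for Elovl3, 9.29 for Fasn and 8.70 for Scd1. For Adipoq it was 2.82, for Cd36 2.24 and for Mest 0.747. In AVF-CKD 4 the same ratio, over the median of the other 5 fistula libraries, was 28.9 for Ucp1, 13.1 for Cidea and 5.79 for Elovl3, followed by 4.40 for Lep and 3.31 for Fasn. It was 1.77 for Adipoq, 1.15 for Acly and 1.00 for Elovl6. Ucp1 and Cidea had the 2 largest ratios of the 37 genes in both libraries, whereas those of Dio2 were 2.55 and 2.96. Acly and Elovl6, raised 4.44-fold and 5.65-fold in sham 6, were near the level of their group in AVF-CKD 4. These ratios are descriptions of single libraries and carry no test.

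**Figure D4:**
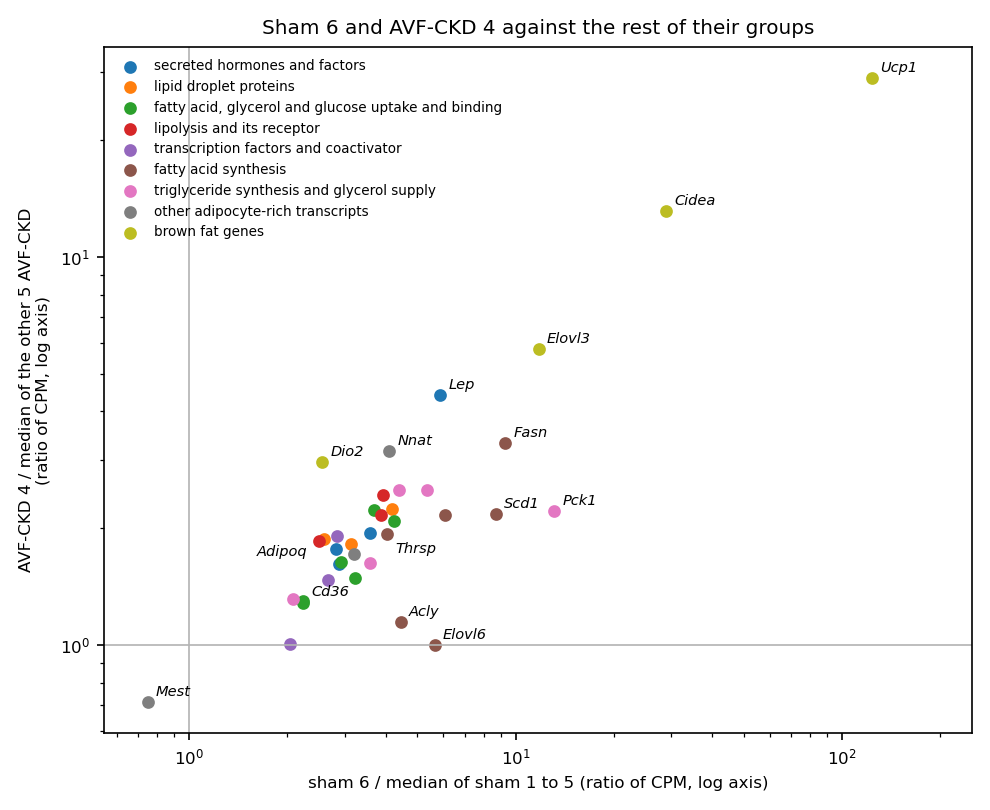
Level in sham 6 over the median of sham 1 to 5 (x) against level in AVF-CKD 4 over the median of the other 5 AVF-CKD libraries (y), both log axes, a point per gene coloured by role. Ucp1 (123 and 28.9), Cidea and Elovl3 lie at the upper right, and Mest (0.747 and 0.713) alone lies below 1 on both axes.

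Sham 6 also carried transcripts of other tissues. Of the 11 salivary gland and neck epithelium markers, 6 were highest in sham 6, and their summed level was 82.7 CPM there, 22.3 to 33.9 CPM in the other sham libraries and 17.3 to 26.9 CPM in AVF-CKD. Krt5 and Krt14, keratins of stratified epithelium, were at 7.04 and 6.37 CPM in sham 6 and at most 0.22 CPM elsewhere. The defining salivary gene Smgc was at 0 in all 12 libraries, and Dcpp1 and Pip were at 0 or at most 0.30 CPM. The 4 thyroid markers summed to 21.4 CPM in sham 6, to 2.80 to 7.21 CPM in the other sham libraries and to 1.69 to 5.84 CPM in AVF-CKD. Nearly all of that was Tshr (20.1 CPM), a receptor that fat also makes, while Tg, the thyroid's own product, was at 0.77 CPM. Amy1, an amylase, made up 45.8 of the 82.7 CPM in sham 6. In AVF-CKD 4 the epithelial markers summed to 26.9 CPM, the highest of its group, of which 19.8 CPM was Amy1 (at most 15.1 CPM in the other fistula libraries), with Krt5 at 0 and Krt18 at 0.43 CPM, the lowest of the group. The part of these transcripts in the differences above was not tested.

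Skeletal muscle transcripts varied widely within both groups. The 10 muscle markers summed to 460 to 13293 CPM in the sham group and 934 to 12774 CPM in the fistula group, and sham 6 (4267 CPM) and AVF-CKD 4 (1172 CPM) were at neither end of them. With the muscle level of each library as a covariate, 18 of the 36 fat genes were lower at an unadjusted p below 0.05, against 4.05% of all genes. Of the 5 smooth muscle markers, 4 had lower fitted levels, 2 of them (Cnn1 and Tagln) at an unadjusted p below 0.05 and 0 called, with a median log2 difference of -0.38, and of -0.33 without sham 6. Their sums were 1338 to 2171 CPM in sham, highest in sham 6, and 988 to 1775 CPM in the fistula group, lowest in AVF-CKD 4. All 6 endothelial markers had lower fitted levels, 1 at an unadjusted p below 0.05, with a median of -0.16. The 6 macrophage markers summed to 5000 to 9944 CPM in the sham group and 5281 to 10004 CPM in the fistula group, so their ranges overlapped, and sham 6 was the lowest. The part of these cell types in the fat gene differences was not tested.

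Which genes followed adiponectin across libraries was described by the correlation of log2 CPM with Adipoq, for the 33 genes (32 of the white and shared genes other than Adipoq itself, and Dio2) with at least 10 counts in every library. Of these, 3 had an adjusted p below 0.05 over all 17430 such genes, against 0.0861% of all genes: Car3, Pparg and Adrb3. Car3 ranked 2 among all genes, with r = 0.97 (permutation p = 1e-05, the smallest that 100000 permutations can give, adjusted p = 0.0249) and rho = 0.94 (permutation p = 1e-05, adjusted p = 0.0581). Pparg ranked 7, with r = 0.95 (permutation p = 4e-05, adjusted p = 0.0465) and rho = 0.91 (permutation p = 0.00015, adjusted p = 0.174). Adrb3 ranked 85, with r = 0.88 (permutation p = 1e-05, adjusted p = 0.0249) and rho = 0.87 (permutation p = 0.00051, adjusted p = 0.257). Genes with a higher r than Adrb3 included Fabp4 (0.94), Nnat (0.92), Cfd (0.92) and Retn (0.91), each with an adjusted permutation p of 0.0513. Without the 2 libraries farthest from the Adipoq median, sham 3 and sham 6, r was 0.91 for Car3, 0.84 for Pparg and 0.81 for Adrb3. Without sham 6, 0 of the 33 had an adjusted p below 0.05 by this permutation test, as had 0% of all genes. Car3 then had r = 0.92 (permutation p = 7e-05, adjusted p = 0.407).

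Over the 33 genes the median r was 0.81, and 0.60 without sham 6, beside -0.00884 over all genes. The lowest values were those of Mest (-0.28), Ppargc1a (0.38) and Cd36 (0.43). These correlations and their permutations pool both groups, so a difference between the groups enters them. Within sham and within AVF-CKD, r was 0.97 and 0.88 for Car3, 0.99 and 0.92 for Pparg, and 0.95 and 0.87 for Adrb3. It was 0.94 and 0.81 for Pck1 (0.59 pooled), 0.93 and 0.27 for Cebpa (0.68 pooled), and 0.75 and 0.06 for Cd36. Genes of the same libraries share depth and scaling, and these genes were picked as adipocyte genes, so a positive median is a description.

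**Figure D5:**
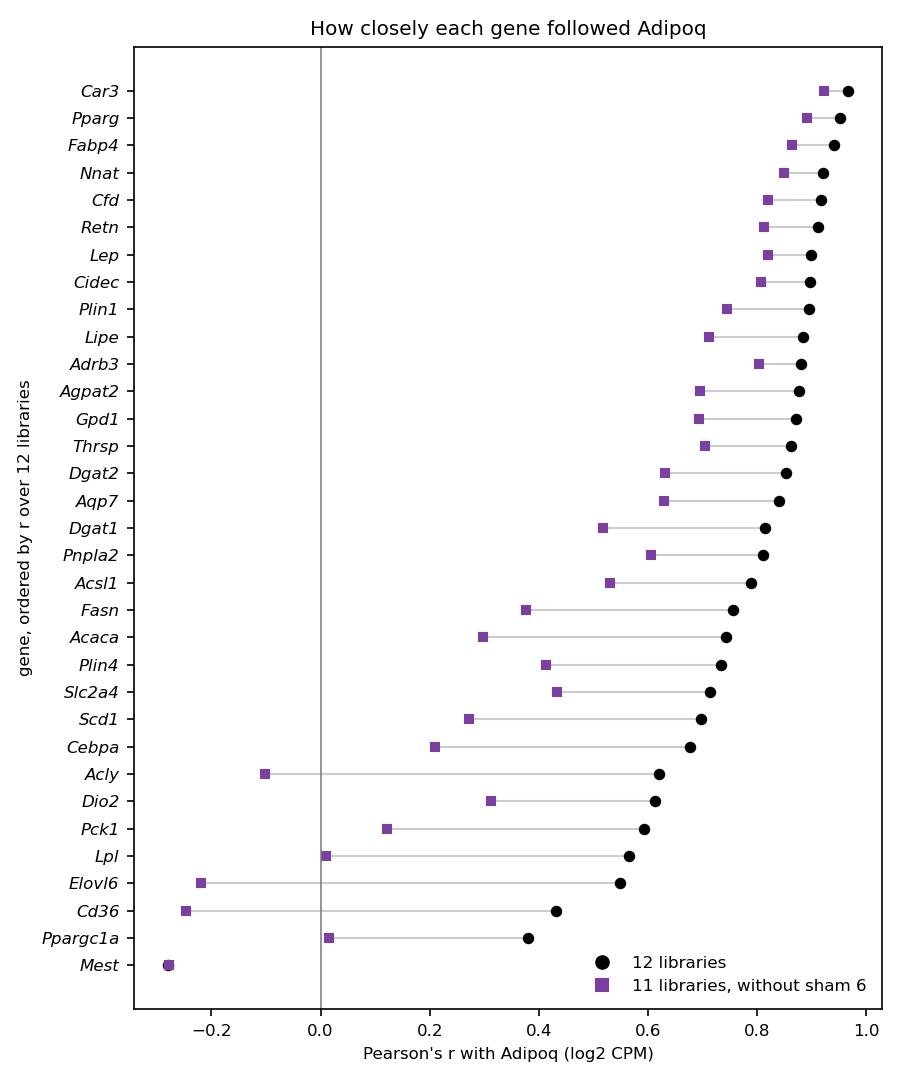
Pearson's r of each gene's log2 CPM with that of Adipoq over 12 libraries (black) and over 11 without sham 6 (purple), for 33 genes. Car3, Pparg and Fabp4 keep r above 0.86 without sham 6, while Acly, Elovl6 and Cd36 go from 0.62, 0.55 and 0.43 to values below zero.

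A ratio to Adipoq carries the lower Adipoq level of the fistula libraries with it, so it is read against the same ratio of all genes. By a two-sided exact permutation test over all assignments of the libraries to groups, 13 of the 33 ratios to Adipoq were higher in the fistula group at exact p-values below 0.05 and 0 lower, while 86.4% of 17430 genes had such a higher ratio, so the share among the adipocyte genes was the smaller. Adipocyte genes whose ratio to Adipoq did not differ at that level included Retn (log2 ratio difference -0.31, exact p = 0.212), Thrsp (-0.56, exact p = 0.139) and Car3 (0.16, exact p = 0.180). With Plin1 in place of Adipoq, 2 of the 33 ratios were higher (Plin4 and Acsl1), near the 6.62% of all genes, and 2 lower (Thrsp and Nnat), against 0.0459% of all genes.

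Other genes of adipocytes were read from lists outside the 37. Of 43 further white adipocyte genes, all tested, 9 were lower at an unadjusted p below 0.05, against 4.08% of all genes. In all, 36 of the 43 were lower and 7 higher, and 0 were called. Their median log2 difference was -0.24, and -0.03 without sham 6. Sham 6 was the highest library for 31 of the 43. The smallest p-values belonged to Rbp4, the retinol carrier that fat secretes (-1.12 ± 0.31 SE, edgeR adjusted p = 0.390), and to Pnpla3, a lipase-like protein of lipid droplets (-2.07 ± 0.58 SE, adjusted p = 0.390). Without sham 6 they differed by -0.68 ± 0.15 and -1.14 ± 0.33. Their medians were 16.4 and 19.4 CPM in sham, and 9.54 and 7.57 CPM in the fistula group. On the higher side were Angptl4, an inhibitor of Lpl (0.36 ± 0.22 SE), and Cebpb, an early factor of adipocyte differentiation (0.36 ± 0.23 SE), both with adjusted p above 0.6, and at 0.52 ± 0.20 and 0.43 ± 0.24 without sham 6. Hp, haptoglobin, was the most abundant per kilobase and differed by -0.37 ± 0.32 (SE), and by -0.09 ± 0.28 without sham 6.

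Of 18 further brown fat and thermogenic genes, 17 were tested, 14 were lower and 3 higher, and 1 was lower at an unadjusted p below 0.05 (Kcnk3, a potassium channel, -0.55 ± 0.25 SE, adjusted p = 0.526, and -0.31 ± 0.20 without sham 6). Next came Letmd1, a mitochondrial protein (-0.16 ± 0.09 SE), and on the higher side Prdm16, a regulator of brown fat fate (0.11 ± 0.19 SE), and Gk, the glycerol kinase (0.10 ± 0.18 SE). Sham 6 was highest for 8 of the 18. Their summed level was 236 CPM there and 114 to 178 CPM in the other sham libraries, while AVF-CKD 4, at 139 CPM, lay within the 103 to 169 CPM of the other fistula libraries. The sum is carried by the more abundant genes, and single genes in AVF-CKD 4 went both ways. Otop1 and Clstn3 were there at 6.76 and 3.44 times the median of the other fistula libraries, and Cox7a1 and Fabp3 at 0.449 and 0.396 times. These genes were named after their values were seen. Cox8b, a respiratory chain subunit of brown fat and muscle, was the most abundant per kilobase and differed by -0.33 ± 0.43 (SE). Of 10 adipocyte progenitor genes, 9 were lower and 1 higher, 0 at an unadjusted p below 0.05 in either direction. Their median difference was -0.08, and sham 6 was the highest library for 0 of the 10. Pdgfra, the receptor that marks progenitors and fibroblasts, differed by 0.10 ± 0.15 (SE) and Dlk1, a preadipocyte factor, by -1.32 ± 0.62 (SE; edgeR adjusted p = 0.540), and by 0.05 ± 0.15 and -1.38 ± 0.66 without sham 6. Dlk1 was at 99.3 CPM in sham 5, at most 22.2 CPM in the other sham libraries and 5.68 to 14.6 CPM in AVF-CKD. Ly6a, the most abundant progenitor gene per kilobase, differed by -0.29 ± 0.23 (SE).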

How the data were processed

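Venous RNA was extracted with Trizol and a Qiagen kit and made into libraries with the TruSeq RNA kit, which does not mark strand, per the labels' protocols. GRCm38 is the build, and TopHat2 2.1.0, featureCounts and edgeR are the programs, listed in the submitters' processing notes, which do not tie them to steps. Annotation release and read filtering were not given in the sources used here. Analysed were the deposited read counts per gene, whole numbers not normalized by the authors; the transcript length in the deposited table was used for levels per kilobase. The table held 0 per-sample columns of other series. Coordinates are those of the deposited table. All 66 pairs of libraries differed by more than sampling noise (a chi-square of at least 48.3 for each degree of freedom).

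Groups and numbers came from the sample titles. The 37 genes, their roles and the other lists were chosen with earlier results of these data known. Values are given in full for the 4 brown fat genes, the most abundant gene per kilobase of each role, the 5 genes with the smallest p and any gene whose groups do not overlap, and for Lep, Fasn, Pparg, Pck1 and Nnat; of the other lists, the 2 smallest p in each direction and the most abundant gene. Symbols Cavin1, Trarg1, Gk and Adgre1 were matched by gene ID.

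Counts were filtered by filterByExpr, scaled by TMM and tested over all genes with edgeR 4.0.16 in R 4.3.3 (quasi-likelihood F-test, group as single term, Benjamini-Hochberg, threshold 0.05). Standard errors were derived from each F statistic and its fold change. The fit was tested on simulated data. Log2 CPM for ratios and correlations used a prior count of 2, over genes with at least 10 counts in every library. Ratios and correlations were tested and adjusted over all such genes rather than over the list, which differs from the design first written. Alternatives were other scaling, 2 filters, the title number as a block, a muscle covariate, title numbers 1 to 3 and 4 to 6 as a term or alone, DESeq2 1.42.0, limma 3.58.1 voom, another prior count, Plin1 as reference and leaving out each library. Leaving out sham 6 and AVF-CKD 4 together was chosen after seeing the data. Promoter sequences are from RefSeq (GRCm38.p6), and exon overlaps from GENCODE M21.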

Additional observations from a re-analysis of the deposited data

Results flagged for a closer look

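In sham 6, 29 of the 37 genes were so high that the gap to the next sham library exceeded Dixon's critical share of the group's range for 6 samples. Chance alone would mark about 1 in 20 groups of normally distributed values, but CPM need not be so distributed, and genes of a library are not independent. The share of all genes marked in this way is not given here, so these counts describe the 37 genes only. The secreted factors so marked were Adipoq (386 CPM) and Retn (131 CPM). The droplet, uptake and lipolysis genes were Plin1 (188), Plin4 (174), Lpl (839), Cd36 (702), Fabp4 (1514), Acsl1 (302), Aqp7 (17.05), Lipe (219.6) and Adrb3 (47.4 CPM), and among regulators Pparg (53.5 CPM). The synthesis genes were Fasn (1790), Acaca (338), Scd1 (2995), Acly (623), Elovl6 (64.4), Thrsp (333), Dgat1 (66.6), Dgat2 (226), Agpat2 (185), Gpd1 (413) and Pck1 (340 CPM). Nnat (21.8) and Car3 (2608 CPM) followed, and so did all 4 brown fat genes: Ucp1 (42.5), Cidea (45.6), Elovl3 (0.851) and Dio2 (34.7 CPM).

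AVF-CKD 4 stood apart in the same way within its group for 9 genes: Lep (8.42), Acsl1 (186), Lipe (95.6), Pnpla2 (169.9), Adrb3 (20.4), Pparg (25.2), Nnat (6.88), Ucp1 (10.5) and Cidea (11.7 CPM). Slc2a4 was apart in AVF-CKD 2 (28.9 CPM), the fistula library with the most skeletal muscle transcripts, and Mest in sham 5 (322 CPM). The part of muscle in the Slc2a4 value was not tested.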

How the results depend on the processing

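From all libraries, 16 genes were lower at an unadjusted p below 0.05. The count was 9 with the title number as a replicate block, beside 892 of all 18965 genes tested. It was 7 from title numbers 4 to 6 alone, beside 978 of 19097 genes, and 10 with limma voom, beside 933 of 18965 genes. It ran from 5 to 22 when single libraries were left out, lowest without sham 6, and 0 to 2 genes were then higher. Called genes numbered 2 with DESeq2 and 0 in every other setting run. The median of the white and shared genes kept its sign throughout, from -0.98 to -0.38 with single libraries left out. That of the brown fat genes ran from -3.16 without AVF-CKD 4 to 0.61 without sham 6.

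Same-numbered samples did not deviate together (correlations -0.03, 0.24, 0.28, -0.11, -0.10 and 0.14), so the title numbers are not taken as pairs. Under the block the medians were -0.68 and -0.46.

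Signs turned for Cebpa (0.038 from title numbers 1 to 3 alone, 0.061 without sham 6 and AVF-CKD 4, -0.22 to 0.072 with single libraries left out) and Ucp1 (0.26 with limma voom, 0.16 without both libraries, -4.55 to 2.84 with single libraries left out). With single libraries left out they also turned for Cidea (-3.16 to 0.61), Dio2 (-0.59 to 0.043) and Pnpla2 (-0.51 to 0.019). Each turned without sham 6, and the cause was not tested.

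The count of ratios to Adipoq that differed was 13, ran from 10 to 16 with single libraries left out, and was 4 with Plin1 as denominator. That denominator turned the ratios of Cfd (-0.021), Scd1 (-0.32), Gpd1 (-0.16) and Car3 (-0.18). The Scd1 ratio ran from -0.41 to 0.31. The 3 correlations became 0 without sham 6 (0% of all genes) and 7 with Plin1 as reference. The share of all genes with Plin1 as reference is not given here. Depth limits Elovl3, and Ucp1 outside sham 6 and AVF-CKD 4.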

Other observations

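Genes outside the 37 whose levels followed Adipoq most closely were read by rank among 17430 genes and named after their values were seen, as a description. The 6 highest were, in order, Gstz1 (r = 0.97 over 12 libraries), Nudt7 (0.96), Cdo1 (0.96), Sycp3 (0.96), Ppp1r1a (0.95) and Hibch (0.95). They are given by rank alone, and no group of genes was tested. Of the 40 genes most like Adipoq, 6 belonged to the 37. None of the lipogenic genes Fasn, Scd1, Acly and Elovl6 was among them, their ranks being 288, 404, 623 and 936.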
